A study of Saccharomyces cerevisiae with 18 samples.

Results

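The expression of all genes was compared in control medium between *hcm1-3N* cells and *hcm1-8E* cells, with 3 replicate cultures of each mutant. These are 6 of the 18 RNA-seq libraries of the series, chosen by the mutant and the medium in the sample titles. The other libraries were WT cells in the same medium and all 3 strains in 150 mM LiCl, an ionic stress. Every culture was haploid MATa yeast of the BY4741 background with the alleles lys2delta0, leu2delta0, ura3delta0 and his3delta1. Every strain also carried a TEFp-GFP reporter with a hygromycin marker (Hyg) on chromosome VI, and its genomic *HCM1*, tagged with 3HA, stood behind *GAL1p* (HIS3MX6-GAL1p-HCM1-3HA-KanMX). Starter cultures grew in galactose, and the dextrose of the experiment shut the genomic copy off, so that Hcm1 came from the centromeric *URA3* plasmid pRS316, with HCM1p driving *hcm1-3N*-3V5 or *hcm1-8E*-3V5 (*HCM1*-3V5 in WT). Cells were collected at 40 hours, with no further treatment. The labels give 1 genotype per group and do not say whether the replicates were separate transformants, so a feature of a transformed strain and an effect of the substitutions cannot be told apart. The study's methods name 3 biological replicates. If the 3 cultures of a group came from 1 transformant, the p-values measure the spread between its cultures and not between transformants.

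Hcm1 is a forkhead transcription factor that activates genes of S phase, among them genes for chromosome segregation and for later cell cycle regulators. Its transactivation domain is turned on when the cyclin-dependent kinase CDK phosphorylates it, and phosphorylation of its N-terminus by CDK marks the protein for degradation. In Hcm1-8E, phosphomimetic residues replace the CDK sites of that domain, which makes it constitutively active, whereas Hcm1-3N lacks the N-terminal phosphorylation sites, is stabilized, and keeps a transactivation domain that can still be regulated. The comparison therefore asks how the transcriptomes of cells with either form of Hcm1 differ without stress.

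The plasmid gene was at similar levels in both mutants. *HCM1* was measured at 241, 242 and 250 CPM in the *hcm1-3N* cultures and at 220, 252 and 242 CPM in those of *hcm1-8E*. CPM are counts scaled to 1000000 per library with edgeR's TMM normalization, and the groups overlapped. The log2 fold change, given throughout as *hcm1-3N* over *hcm1-8E*, was 0.04 (95% interval -0.24 to 0.31, edgeR adjusted p = 0.889). The plasmid marker *URA3* had 552, 524 and 616 CPM against 608, 495 and 621 CPM in *hcm1-8E* (log2 fold change -0.03, adjusted p = 0.922). In LiCl, in contrast, *HCM1* was higher in *hcm1-3N*, by 0.76 on the log2 scale (adjusted p = 0.00193), but the difference between the media did not pass the test (adjusted p = 0.0976). *HIS3* was lower in *hcm1-3N*, with 52.0, 55.7 and 53.2 CPM against 78.7, 79.4 and 85.8 CPM (log2 fold change -0.60, SE 0.12, adjusted p = 0.0218), in strains that carry the his3delta1 allele. Markers of MATa cells were abundant in all 6 libraries, such as *STE2*, the alpha-factor receptor, at 619 to 783 CPM. The libraries held 18816441 (*hcm1-3N* replicate 3) to 21745280 counts, and 6239 of 7126 genes passed the expression filter. In both mutants replicate 1 stood apart from replicates 2 and 3, and over all 18 libraries together 56.31% of the genes differed between replicate 1 and the others. This shift was shared by same-numbered libraries, and the replicate number was fitted as a block.

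With the block, 233 of 6239 genes (3.73%) had an adjusted p under 0.05, of which 102 (1.63%) were higher and 131 (2.1%) lower in *hcm1-3N*. The differences were small, with a median size of 1.36-fold over the called genes. A change of more than 2-fold was found in 18 genes, all of them higher in *hcm1-3N*. All 233 genes differed in the same direction in every pair of same-numbered cultures, as did 55.4% of all genes, and for 187 of them no library of one mutant reached into the range of the other (26.7% of all genes, 12.6% with *hcm1-3N* above and 14% with *hcm1-3N* below). The median log2 fold change of all genes was 0.0012. The adjusted p lay at 0.04 or above for 92 of the called genes and under 0.01 for 6. An unadjusted p under 0.05 was found for 1490 of the 6239 genes, 667 higher and 823 lower in *hcm1-3N*.

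How many genes were called rested on the fit. Without the block, edgeR called 4 genes (0.0641%), all higher in *hcm1-3N*: *GSC2*, *CDA1*, *SSP2* and *PDR11*. DESeq2, the tool named in the study's methods, called 119 genes without the block, and 86 of these were among the 233. With the block, edgeR called 1405 genes when only the 6 libraries were fitted and 1377 with the 9 control libraries. Leaving out the pair of replicate 2 or of replicate 3 left 1 or 2 genes, and leaving out the pair of replicate 1 left 266, among them 160 of the 233. Without *hcm1-3N* replicate 1, 2 or 3, 51, 6 and 5 genes were called, and without *hcm1-8E* replicate 1, 2 or 3, 705, 4 and 4. The direction of each of the 233 genes did not change in any of these fits that tested it. Without the block, 182 of them had an unadjusted p under 0.05, as did 797 of all 6239 genes. These fits reuse the same libraries, and all 233 genes differed in the same direction in every pair. The kept sign is therefore no added support. Because the number called varied this much, the gene groups below are described by the sign and size of their members beside that number.

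**Figure D1:**
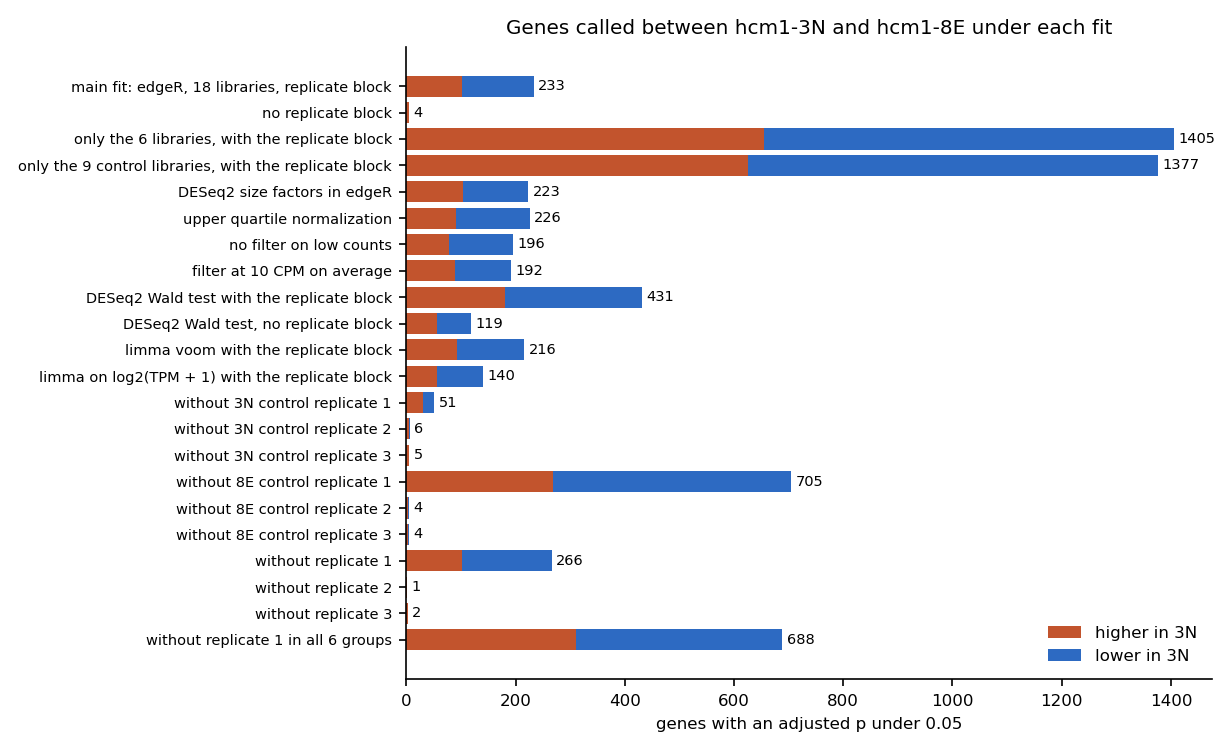
Number of genes with an adjusted p under 0.05 in control medium between *hcm1-3N* and *hcm1-8E* (horizontal axis) under each fit (rows), split into genes higher (orange) and lower (blue) in *hcm1-3N*. The count was 233 in the fit reported in the text and ranged from 1 to 1405 over the alternatives.

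The gene with the smallest p-value was *GSC2*, which encodes the alternative catalytic subunit of the beta-glucan synthase that builds the cell wall. It was measured at 222, 276 and 290 CPM in *hcm1-3N*, and at 126, 128 and 114 CPM in *hcm1-8E*. The groups were far apart, a 2.12-fold difference (log2 fold change 1.08, SE 0.12, adjusted p = 0.000621), and *GSC2* was called in all 21 alternative fits. *PDR11*, an ABC transporter that takes up sterols, had 37.6, 34.9 and 38.7 CPM against 24.0, 23.5 and 23.9 CPM in *hcm1-8E*, 1.56-fold higher (log2 fold change 0.64, SE 0.10, adjusted p = 0.00822). *OPT2*, an oligopeptide transporter, had 5.56, 7.01 and 6.38 CPM against 2.31, 2.81 and 2.32 CPM, 2.54-fold higher (adjusted p = 0.00193, and 0.0587 without the block). Others among the largest increases were measured at a few CPM, such as *STL1*, a glycerol symporter (1.24, 2.37 and 2.28 CPM against 0.897, 0.763 and 0.852 CPM, log2 fold change 1.19, adjusted p = 0.0261), *RRT1* (1.56, adjusted p = 0.0455) and *ERR3*, an enolase-related gene with near-identical copies (1.29, adjusted p = 0.023). *FMP45*, a membrane protein gene, had 8.74, 46.6 and 45.5 CPM against 5.71, 20.3 and 17.0 CPM (log2 fold change 1.13, adjusted p = 0.0491), with replicate 1 far below the others in both mutants.

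Of 53 genes for the cell wall and its integrity pathway, *GSC2* among them, 8 were called (15.1%, against 3.73% of all genes), 6 higher and 2 lower in *hcm1-3N*. Over the list 31 values were positive and 22 negative, with a median log2 fold change of 0.10. Beside *GSC2* these were *BGL2*, a wall endoglucanase, *GAS5*, a glucan-remodelling enzyme, *SCW4*, a wall protein related to glucanases, and *CWP2* and *PIR3*, structural mannoproteins. *BGL2* had 2547, 2600 and 2826 CPM against 1997, 2014 and 1947 CPM in *hcm1-8E* (log2 fold change 0.42, SE 0.07, adjusted p = 0.0174). *GAS5* had 696, 762 and 816 CPM against 550, 599 and 538 CPM (log2 fold change 0.43, adjusted p = 0.0195). No *hcm1-8E* library reached the lowest *hcm1-3N* library for either gene. The genes that were lower were *RLM1*, the transcription factor at the end of the integrity pathway (73.2, 74.1 and 65.4 CPM against 94.9, 109 and 114 CPM, log2 fold change -0.59, adjusted p = 0.0247), and the kinase gene *MKK1* of the same pathway (log2 fold change -0.36). *PRM5*, a known target of the pathway, also had less RNA in *hcm1-3N* (log2 fold change -0.60, adjusted p = 0.0471). Of these wall genes, *GSC2* alone was called without the block.

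**Figure D2:**
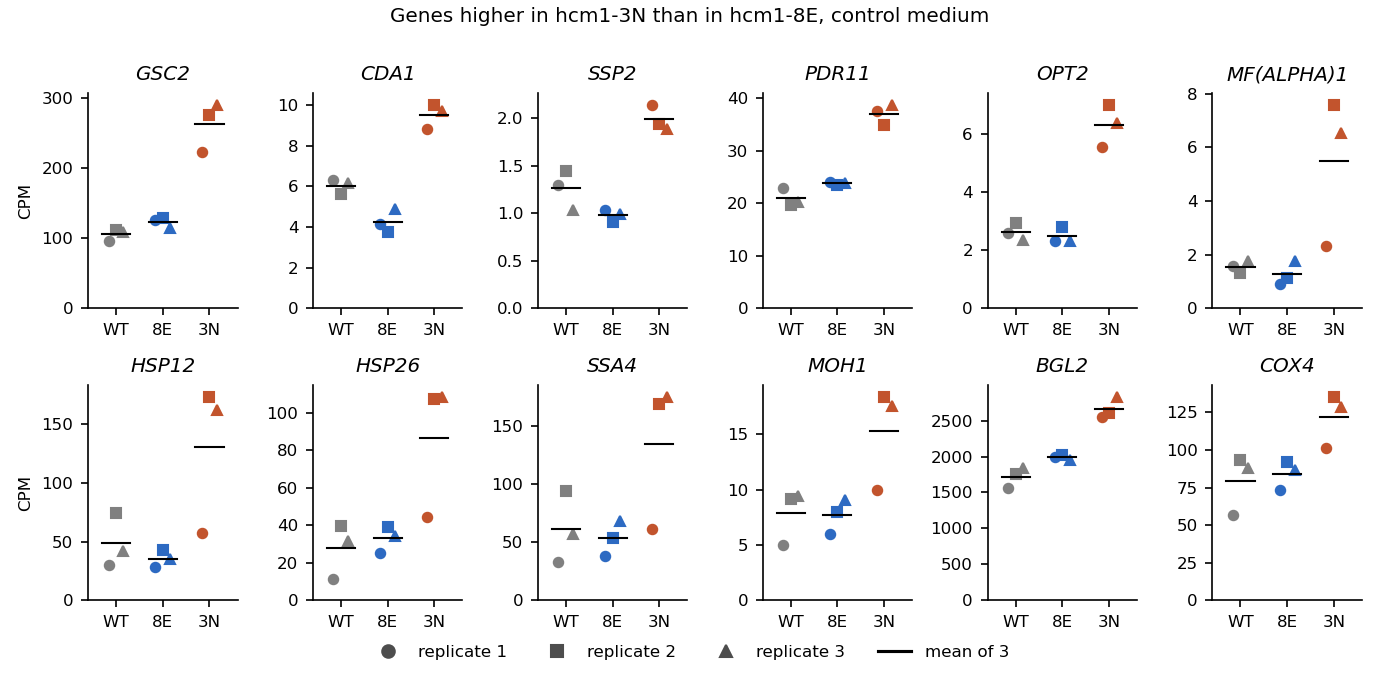
TMM-normalised level in CPM (vertical axis, from 0) of 12 genes that were higher in *hcm1-3N*, in each WT, *hcm1-8E* and *hcm1-3N* library of control medium. Symbols mark the replicate number and lines the mean of 3 replicates. *GSC2* lay at 222 to 290 CPM in *hcm1-3N*, against 114 to 128 CPM in *hcm1-8E*, and the heat-inducible genes *HSP12*, *HSP26* and *SSA4* were lowest in replicate 1 of every strain.

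Genes of meiosis and of the spore wall were also among the largest positive values, although all of them stayed at low levels. Of 35 such genes tested, 4 were called (11.4%, against 3.73% of all genes), all higher in *hcm1-3N*, with a median log2 fold change of 0.25 and 30 positive values. *CDA1*, a chitin deacetylase of the spore wall, had 8.84, 10 and 9.69 CPM against 4.15, 3.77 and 4.87 CPM in *hcm1-8E*, 2.22-fold higher (log2 fold change 1.15, SE 0.15, adjusted p = 0.00232). *SSP2*, needed to assemble the outer spore wall, had 2.14, 1.94 and 1.88 CPM against 1.04, 0.906 and 0.994 CPM (log2 fold change 1.02, SE 0.18, adjusted p = 0.0174). *SPR3*, a septin of sporulating cells, had 7.65, 6.63 and 7.29 CPM against 3.07, 2.43 and 3.22 CPM (log2 fold change 1.31, SE 0.26, adjusted p = 0.0218). For these genes the *hcm1-3N* libraries lay close to each other and well above *hcm1-8E*. The fourth was *DMC1*, the meiotic recombinase (log2 fold change 0.71, adjusted p = 0.0393). Summed over the list of 40 genes, the level was 214 to 223 CPM in *hcm1-3N*, against 187 to 199 CPM in *hcm1-8E*. Markers of sporulating cells went both ways. *IME2* had 32.3, 25.8 and 30.2 CPM against 30.4, 32.8 and 32.0 CPM, and *SPS1* had 6.08, 3.46 and 4.05 CPM against 6.28, 5.01 and 6.06 CPM. *SPS4* had 1.95, 1.23 and 1.31 CPM against 0.897, 0.954 and 0.852 CPM. The groups overlapped for *IME2*, *SPS1*, *NDT80*, *SPO11*, *SPO13* and *SPS100*. The 7 markers of MATa cells summed to 2228 to 2317 CPM and 2028 to 2291 CPM, and 1 of them was called, *STE6*, which was lower in *hcm1-3N*.

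Among called genes with a symbol in the table, the largest fold change belonged to *MF(ALPHA)1*, the alpha-factor precursor that alpha cells express. Its counts were 49, 160 and 115 in *hcm1-3N* and 19, 24 and 37 in *hcm1-8E*, or 2.33, 7.58 and 6.55 CPM against 0.897, 1.14 and 1.75 CPM. It was higher in *hcm1-3N*, and no *hcm1-8E* library reached its lowest value there (log2 fold change 2.1, SE 0.44, adjusted p = 0.0292). The a-factor gene *MFA1* was at 273 to 401 CPM in the 6 libraries and was not called (log2 fold change 0.25, adjusted p = 0.379). The 5 markers of alpha cells summed to 105 to 115 CPM in *hcm1-3N* and 96.4 to 102 CPM in *hcm1-8E*, and none of the other 4 was called, although 2 of them had an unadjusted p under 0.05 with higher values and 1 with lower values in *hcm1-3N*. The part of other cells in this result was not tested. Still larger fold changes were fitted for 2 genes without a symbol in the table, singled out after their values were seen. *YFR057W*, which ends 645 bases from the end of chromosome VI, had 0.903, 0.474 and 0.513 CPM in *hcm1-3N* and 0, 0.0954 and 0.0946 CPM in *hcm1-8E*, where every library held 3 counts or fewer. *YBL113W-A* had 0.760, 0.569 and 0.627 CPM against 0.142, 0.0477 and 0.189 CPM. Both were called (adjusted p = 0.0218 and 0.0174), but at these levels their fold changes depend on the prior count. Their counts were 9 to 19 in *hcm1-3N* and 0 to 4 in *hcm1-8E*. Of these 6 libraries, only those of *hcm1-3N* could thus have carried them through the expression filter. Their calls are therefore no support for a difference. Of the genes higher in *hcm1-3N* that could be placed, 7% lay within 20000 bases of a chromosome end, against 0.775% of the genes that were lower and 3.26% of all genes.

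Another group was made of genes of the general stress response, which Msn2 and Msn4 activate through stress response elements and which is high in slowly growing cells. Of 51 genes tested, 7 were called (13.7%, against 3.73% of all genes), all higher in *hcm1-3N* (1.63% of all genes). Over the list, 45 had a positive log2 fold change (median 0.31). For 6 of the 51 (11.8%) every *hcm1-3N* library lay above every *hcm1-8E* library, close to the 12.6% of all genes. The stress response element, with the letters AGGGG on either strand, was present in the 500 bases before the start codon of 82.4% of the list, against 34.5% of all genes tested with a position, and in 6 of the 7 called genes. Among all genes called higher in *hcm1-3N* its share was 38%, close to that of all genes. Windows of 30 bases around the match nearest the start codon are shown for the 3 with the largest change, in the direction of the gene and with the element (or its reverse complement) in capitals, from the RefSeq sequence of the R64 build.
*HSP12* (chrVI:107054-107083, plus strand): gttccggtcgtcCCCCTcttgatctgaaag
*HSP26* (chrII:381692-381721, plus strand): ggttattccctcCCCCTtatgcgtccaaaa
*SSA4* (chrV:364398-364427, plus strand): attcaataagcaAGGGGggaagctccttag

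*HSP12*, a small membrane-associated stress protein, was measured in *hcm1-3N* at 57.5, 173 and 163 CPM and in *hcm1-8E* at 28.2, 43.2 and 35.6 CPM, 3.42-fold higher (log2 fold change 1.77, SE 0.31, adjusted p = 0.0218, and 0.13 without the block). *HSP26*, a small heat shock chaperone, had 44.4, 107 and 108 CPM against 25.4, 39.2 and 34.5 CPM (log2 fold change 1.32, adjusted p = 0.0219). *SSA4*, a heat-inducible Hsp70, had 60.9, 168 and 175 CPM against 38.5, 53.4 and 68.2 CPM (log2 fold change 1.21, adjusted p = 0.0257). In all 3 genes replicate 1 was the lowest library of each mutant, and for *SSA4* the groups overlapped although each pair differed in the same direction. *MOH1*, *GRE1*, *HOR7* and *GND2* were the other called members, with log2 fold changes of 0.96, 0.57, 0.49 and 0.41. Other well-known members were not called and had large errors, such as *TSL1* of trehalose synthesis (0.31, SE 0.99) and *HSP104*, a disaggregase (0.12, SE 0.71). Summed over the list, the level was 12870 CPM in *hcm1-3N*, against 12170 CPM in *hcm1-8E* for replicate 1, but 25060 and 18440 CPM for replicate 2 and 23930 and 17000 CPM for replicate 3. Of 31 genes for other heat shock proteins and chaperones, 14 were positive, with a median of -0.03, and none was called by edgeR. At an unadjusted p under 0.05, 1 was higher and 4 were lower, against 667 and 823 of all 6239 genes. Without the pair of replicate 1, 9 of the 51 stress genes were called, in a fit that called 266 genes of all tested, and without the pair of replicate 2 or of replicate 3 edgeR called 0 of them (820 and 654 genes over all had an unadjusted p under 0.05 in these fits).

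Of 47 nuclear genes of oxidative phosphorylation, 46 had a positive log2 fold change, with a median of 0.27, and 3 were called (6.38%, against 3.73% of all genes), all higher in *hcm1-3N*. *COX4*, a subunit of cytochrome c oxidase, had 101, 135 and 129 CPM against 73.1, 92.0 and 86.5 CPM in *hcm1-8E* (log2 fold change 0.53, SE 0.13, adjusted p = 0.0398). *ATP5*, of ATP synthase, and *QCR10*, of the cytochrome bc complex, had log2 fold changes of 0.40 and 0.54. The median difference between same-numbered cultures was 0.08 in pair 1, 0.33 in pair 2 and 0.38 in pair 3, so that the direction of the list rested mostly on the latter pairs. Of 39 genes of the TCA cycle, the glyoxylate cycle and gluconeogenesis, 3 were called higher and 2 lower (12.8%). *FBP1*, the gluconeogenic fructose bisphosphatase that glucose represses, had 5.32, 6.21 and 5.64 CPM against 2.79, 3.43 and 3.17 CPM (log2 fold change 0.88, adjusted p = 0.0324), *LSC1*, of succinyl-CoA ligase, rose by 0.46 and *IDP3*, a peroxisomal isocitrate dehydrogenase, by 0.47. *SUC2*, the invertase that glucose also represses, had 478, 685 and 666 CPM against 352, 427 and 390 CPM (log2 fold change 0.63, adjusted p = 0.0201). The largest decrease among called genes with a symbol in the table was that of *MAE1*, the mitochondrial malic enzyme, with 348, 229 and 241 CPM against 482, 496 and 498 CPM (log2 fold change -0.89, SE 0.22, adjusted p = 0.048), and *ALD5*, a mitochondrial aldehyde dehydrogenase, changed by -0.42. The transfer RNA gene *tV(AAC)M2*, without such a symbol, had a larger fitted decrease (-0.995, adjusted p = 0.0457) at 0.342 to 0.760 CPM against 0.710 to 1.32 CPM, with overlapping groups. None of 28 glycolytic genes, 22 hexose transporters or 72 mitochondrial ribosomal protein genes was called by edgeR. At an unadjusted p under 0.05, these lists held 3 higher and 0 lower, 2 and 2, and 16 and 5 genes. Over all 6239 genes these counts were 667 and 823.

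All called genes of 3 lists of amino acid synthesis were lower in *hcm1-3N*, where 2.1% of all genes were called lower. Of 25 genes of arginine and lysine synthesis, 6 were called (24%), all lower, and 23 had a negative log2 fold change (median -0.31). Of 53 genes of other amino acid pathways, 9 were called (17%), all lower, and 42 were negative (median -0.26). Of 38 sulfur and methionine genes, 2 were called lower (5.26%), *SAM4* and *HOM3* (log2 fold changes of -0.46 and -0.43), and 33 were negative (median -0.26). Many of these genes are activated by Gcn4, the factor of general amino acid control. A Gcn4 site, searched as TGACTC on either strand in the same 500 bases, was present in 68% and 71.7% of the first 2 lists, in 23.3% of all genes that were lower in *hcm1-3N* and in 12.9% of all genes. On the reverse strand these letters can share 3 bases with the PAC element given further below. A Gcn4 site was found for 5 of the 6 called genes of the first list and 5 of the 9 of the second. The windows of 4 called genes are shown with the site in capitals: 2 from the arginine and lysine list (*ARG1* and *ORT1*) and 2 from the other pathways (*ASN1* and *HIS6*).
*ASN1* (chrXVI:822381-822410, plus strand): tcatgtaacattTGACTCattctgtaaact
*ARG1* (chrXV:218925-218954, plus strand): tgccgtatggaaGAGTCAtttaaaggcagg
*HIS6* (chrIX:314897-314926, minus strand): gtctagtgtgcaGAGTCAtacggaataatt
*ORT1* (chrXV:571021-571050, minus strand): agttctgcatcgTGACTCaccttgagctcg

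*ASN1*, an asparagine synthetase, was measured in *hcm1-3N* at 365, 288 and 289 CPM and in *hcm1-8E* at 554, 528 and 576 CPM. It was 1.78-fold lower in *hcm1-3N* (log2 fold change -0.83, SE 0.11, adjusted p = 0.00232, and 0.0781 without the block) and was called in 18 of 21 alternative fits. *ARG1*, argininosuccinate synthetase, had 453, 386 and 387 CPM against 574, 670 and 668 CPM (log2 fold change -0.65, adjusted p = 0.0471). *HIS6*, of histidine synthesis, had 24.0, 22.5 and 23.3 CPM against 37.9, 34.2 and 35.0 CPM (log2 fold change -0.62, adjusted p = 0.0174). In all 3 genes every *hcm1-3N* library lay below every *hcm1-8E* library. *ORT1*, the mitochondrial ornithine carrier, had 26.9, 28.3 and 29.3 CPM against 38.6, 39.7 and 40.4 CPM (log2 fold change -0.49, adjusted p = 0.0247). *LYS21*, a homocitrate synthase, had 142, 126 and 129 CPM against 192, 187 and 177 CPM (log2 fold change -0.50, adjusted p = 0.0292), and it shares near-identical sequence with *LYS20*. The other called genes of arginine were *ARG7*, *CPA1* and the regulator *ARG81* (log2 fold changes of -0.50, -0.46 and -0.46). Among the other pathways they were *HIS1*, *HIS2*, *HIS3*, *TRP3*, *ARO3*, *TYR1* and *PRO1*, of histidine, aromatic amino acid and proline synthesis, at -0.33 to -0.60. For *HIS3*, all of these strains carry the his3delta1 allele. *GCN4* itself had mean levels of 1026 and 958 CPM (log2 fold change 0.09, adjusted p = 0.633), and its regulation is known to be largely translational, which RNA counts do not show. *SNZ1*, of vitamin B6 synthesis, also had less RNA in *hcm1-3N* (log2 fold change -0.72, adjusted p = 0.0499), as did the drug efflux gene *ATR1* (-0.66, adjusted p = 0.0293). *YMC2*, a mitochondrial carrier gene, *FSF1* and *YHI9* were also among the largest decreases (log2 fold changes of -0.66, -0.64 and -0.63).

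**Figure D3:**
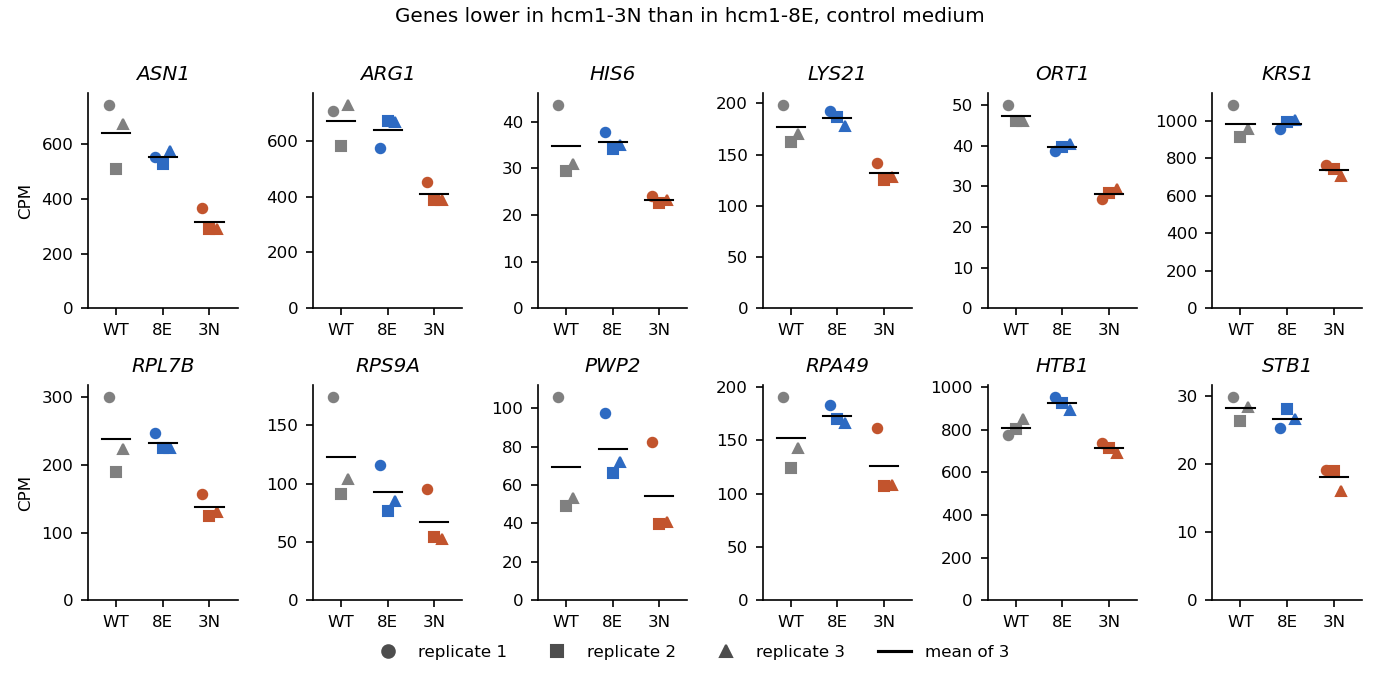
TMM-normalised level in CPM (vertical axis, from 0) of 12 genes that were lower in *hcm1-3N*, in each WT, *hcm1-8E* and *hcm1-3N* library of control medium. Symbols mark the replicate number and lines the mean of 3 replicates. *ASN1* lay at 288 to 365 CPM in *hcm1-3N*, against 528 to 576 CPM in *hcm1-8E*, and for *PWP2* replicate 1 of *hcm1-3N*, at 82.5 CPM, lay within the range of *hcm1-8E*.

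Of 52 translation factors and tRNA synthetases, 5 were called lower and 1 higher in *hcm1-3N* (11.5%, against 3.73% of all genes, median -0.17). *KRS1*, the lysyl-tRNA synthetase, had 766, 743 and 709 CPM against 955, 994.7 and 1007 CPM (log2 fold change -0.42, SE 0.09, adjusted p = 0.0261). *TYS1* and *WRS1*, the tyrosyl- and tryptophanyl-tRNA synthetases, had log2 fold changes of -0.43 and -0.36, and *CDC60*, the leucyl-tRNA synthetase, of -0.40. *EFB1*, which encodes an elongation factor, changed by -0.42, and *CAM1* was the gene called higher, at 0.31. Of 139 genes in the list of cytosolic ribosomal proteins, 7 were called, all lower (5.04%, against 2.1% of all genes lower and 3.73% called), and 118 were negative, with a median of -0.15. This list also holds *RPP1*, which encodes no ribosomal protein and was not called (log2 fold change -0.01). *RPL7B* had 157, 125 and 131 CPM against 247, 225 and 225 CPM (log2 fold change -0.77, SE 0.16, adjusted p = 0.0257), *RPL22B* changed by -0.65 and *RPS9A* by -0.50. *RPL7B* shares near-identical sequence with its paralogue *RPL7A*, and how the mapping quality limit on reads that match both copies bears on its value was not tested. *RPS7B*, *RPL17B*, *RPS20* and *RPL13A* were the others, at -0.35 to -0.44. Summed, the genes of this list took 168700 to 184100 CPM in *hcm1-3N*, against 189400 to 198400 CPM in *hcm1-8E*.

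Ribosome assembly genes gave a less even picture. Of 119 ribosome biogenesis genes, 3 were called (2.52%), all lower, which is near the 3.73% of all genes, and 80 were negative (median -0.10). The median difference was 0.11 in pair 1, -0.10 in pair 2 and -0.25 in pair 3, so the pairs did not share a direction. Of 28 genes of RNA polymerases I and III, 2 were called lower. *PWP2*, of the small subunit processome, had 82.5, 39.5 and 40.7 CPM against 97.6, 66.5 and 71.9 CPM in *hcm1-8E* (log2 fold change -0.63, adjusted p = 0.0391), with overlapping groups, and *UTP8* and *UTP15* of the same complex changed by -0.51 and -0.52. *RPA49*, a subunit of RNA polymerase I, had 162, 107 and 108 CPM against 183, 170 and 166 CPM (log2 fold change -0.51, adjusted p = 0.0441). *SYO1*, which escorts ribosomal proteins into the nucleus, changed by -0.70 (adjusted p = 0.0218). The PAC element, a promoter motif of these genes searched as GATGAG on either strand, was found before 89.1% of the biogenesis genes, 37.2% of all genes that were lower in *hcm1-3N* and 28.1% of all genes. Of the called genes, 2 of 3 in the biogenesis list and 2 of 2 in the polymerase list had it. The windows of *PWP2* and *RPA49* are shown with it in capitals.
*PWP2* (chrIII:223355-223384, minus strand): gaaaaattttgcGATGAGctgaaagatgaa
*RPA49* (chrXIV:182721-182750, minus strand): attttttattgcGATGAGctgaaattttcc

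**Figure D4:**
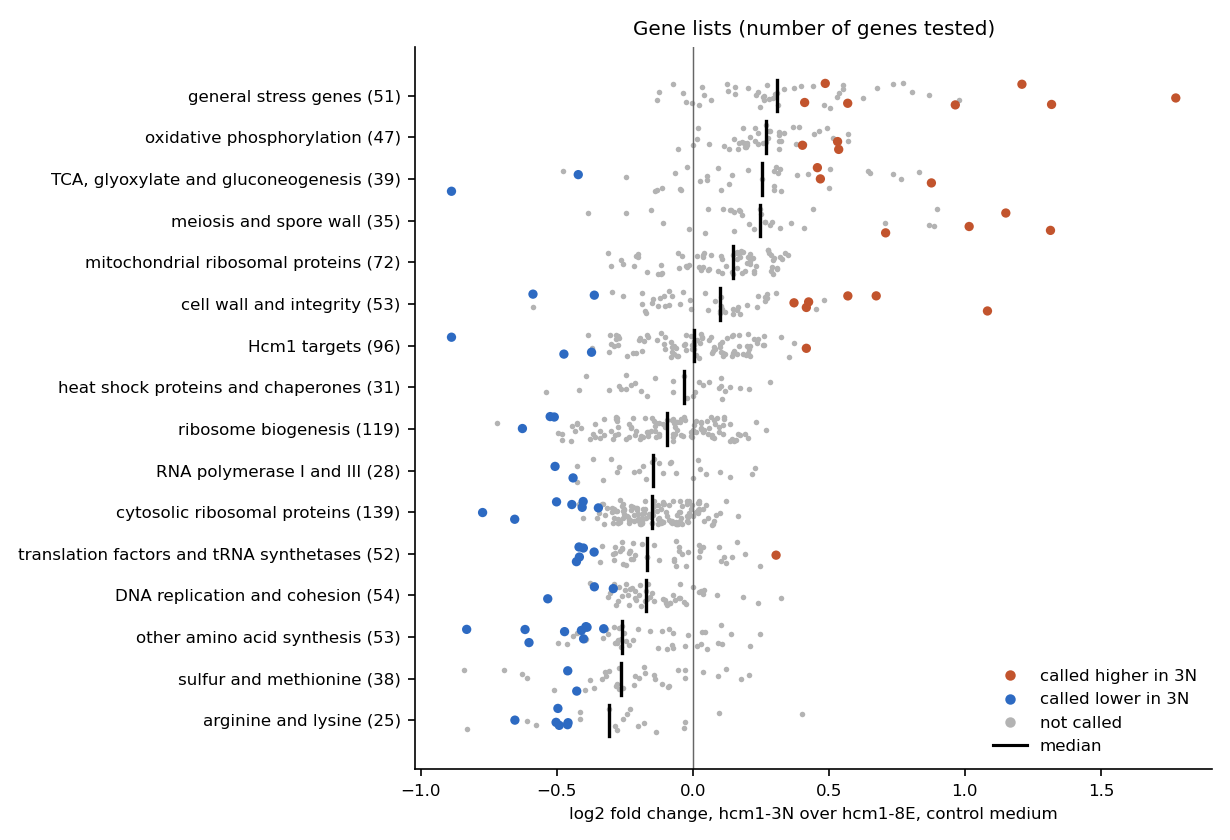
Log2 fold change of *hcm1-3N* over *hcm1-8E* without LiCl (horizontal axis) of each gene in 16 lists (rows, with the number tested), as grey points, with called genes in orange (higher) or blue (lower) and the median of each list as a black line. The medians ran from -0.31 for arginine and lysine genes to 0.31 for general stress genes, and lay at 0.01 for the Hcm1 targets.

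The targets of Hcm1 themselves differed little between the mutants, gene by gene. Summed over the list, their level was 19110 to 19920 CPM in *hcm1-3N*, against 17910 to 18770 CPM in *hcm1-8E*. Of the 96 target genes the study lists, 4 were called (4.17%, against 3.73% of all genes), 1 higher and 3 lower in *hcm1-3N*, and 52 were positive and 44 negative, with a median of 0.01. The forkhead core TAAACAA, on either strand, was found in the 500 bases before 68.8% of the targets and 18.6% of all genes. It was present in 3 of the 4 called targets, shown with the core in capitals, and no match was found for *MAE1*.
*BGL2* (chrVII:1058836-1058865, minus strand): caagaggatatTTGTTTAttttgattttaa
*HTB1* (chrIV:914829-914858, minus strand): cttgatgtataTAAACAAcatgatttgatc
*SVL3* (chrXVI:491625-491654, minus strand): tttgaacctgtTTGTTTAtttatttttaaa

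*HTB1*, a histone H2B gene, was measured in *hcm1-3N* at 735, 716 and 692 CPM and in *hcm1-8E* at 953, 926 and 893 CPM (log2 fold change -0.37, SE 0.07, adjusted p = 0.023). *SVL3* had 129, 95.1 and 90.3 CPM against 145, 147 and 137 CPM (log2 fold change -0.47, adjusted p = 0.0422). *BGL2* and *MAE1* are given above. None of the 7 other core histone genes was called (edgeR; 1 of them had an unadjusted p under 0.05, with a higher value in *hcm1-3N*). *NDD1*, a coactivator of mitotic genes and a target, had a log2 fold change of -0.21 (adjusted p = 0.352). *FKH1*, *FKH2* and *WHI5*, which encode 2 forkhead factors and an inhibitor of cell cycle entry, had values of -0.24, -0.11 and 0.01, with adjusted p of 0.163, 0.551 and 0.974. The count of called targets was 0 of 96 without the block, where 4 of 6239 genes were called. With the 6 libraries alone it was 20 of 96, in a fit that was filtered anew and called 1405 genes of all tested.

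Of the other cell cycle lists, 1.92% (spindle and kinetochore) to 10.5% (transcription factors) of the members were called, against 3.73% of all genes, with at most 3 calls in a list. Of 54 genes of DNA replication and cohesion, 45 were negative (median -0.17) and 3 were called, all lower: *DPB2*, of DNA polymerase epsilon (17.0, 12.3 and 12.8 CPM against 22.1, 17.9 and 20.2 CPM, log2 fold change -0.53, adjusted p = 0.0307), *CDC9*, the DNA ligase (-0.36), and *RFC5*, of the clamp loader (-0.29). Of 19 cell cycle transcription factors, 2 were called lower. *STB1*, a regulator of G1 transcription, had 19.2, 19.0 and 16.1 CPM against 25.3, 28 and 26.6 CPM (log2 fold change -0.57, adjusted p = 0.0393), and *TOS4* changed by -0.38. *SWE1*, the kinase that restrains mitotic CDK, changed by -0.33 and was the only one called of 18 cyclins and CDK inhibitors, 15 of which were negative. Of 24 G2/M genes, *MYO1*, the myosin of the cytokinetic ring (30.3, 26.1 and 25.4 CPM against 20.8, 18.8 and 19.4 CPM, log2 fold change 0.47, adjusted p = 0.0247), and *BUD4*, an anillin-like protein of the bud neck (0.47, adjusted p = 0.04), were higher. Of 17 M/G1 genes, *NIS1* was lower (-0.43). Of 52 spindle and kinetochore genes, *NNF1*, a kinetochore protein, was called higher (0.60, adjusted p = 0.0486). The cultures were not synchronized, and in such bulk samples a change in the number of cells in a phase and a change in RNA per cell cannot be told apart. Flow cytometry of DNA content was not analysed here.

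The levels of both mutants were also set beside those of WT cells in the same medium. These values share libraries with the comparison above and are given side by side. Among the 102 genes higher in *hcm1-3N*, the median log2 fold change over WT was 0.59 for *hcm1-3N* and 0.01 for *hcm1-8E*, and 83 were called higher in *hcm1-3N* than in WT while 3 were called higher and 1 lower in *hcm1-8E*. Among the 131 lower genes the medians were -0.40 and 0.02, and 97 and 1 were called lower than in WT. By the sign of the fitted values, WT lay between the mutants for 47 of the 102 higher and 71 of the 131 lower genes. This held for 1673 of all 6239 genes. Over all genes, 1403 (22.5%) were called between *hcm1-3N* and WT, 11.1% higher and 11.4% lower (7.68% without the block), and 99 (1.59%) between *hcm1-8E* and WT, 0.737% higher and 0.849% lower. *GSC2* was 1.31 above WT on the log2 scale in *hcm1-3N* (adjusted p = 4.58e-05) and 0.23 above it in *hcm1-8E* (adjusted p = 0.268). *ASN1* was at -1.03 (adjusted p = 0.000103) and -0.20 (adjusted p = 0.307). *CDA1* lay between the mutants in WT, with *hcm1-3N* at 0.65 over WT (adjusted p = 0.00714) and *hcm1-8E* at -0.50 (adjusted p = 0.0945). Of the 96 Hcm1 targets, 24 were called higher and 2 lower in *hcm1-3N* than in WT, against 11.1% and 11.4% of all genes. In *hcm1-8E*, 10 were called higher and 0 lower, against 0.737% and 0.849% of all genes.

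Whether the LiCl cultures came from the same starter cultures or transformants as the control cultures is not given in the sources used here. The same mutants in LiCl medium are separate libraries. There, 530 genes (8.49%) were called between the mutants, 224 higher (3.59%) and 306 lower (4.9%), and 191 (3.06%) without the block. Of the 102 genes higher in control medium, 90 had a positive log2 fold change in LiCl (88.2%, against 46% of all genes), and 42 were called higher and none lower. Of the 131 lower genes, 108 were negative (82.4%, against 54% of all genes), and 26 were called lower and none higher. The genes called in the same direction in both media numbered 68, which is 29.2% of those called in control medium and 12.8% of those called in LiCl. Replicate numbers are shared between the media, and starter cultures may be, so this overlap is not independent support. *HSP12* (1.94 in LiCl), *HSP26* (2.02), *MF(ALPHA)1* (3.44), *OPT2* (1.39), *CDA1* (1.28) and *ASN1* (-0.83) were called in both media. *OPI3*, a phospholipid methyltransferase, was higher by 0.60 in control medium and by 1.02 in LiCl, and the wall gene *CWP2* by 0.57 and 1.18. The lists of ribosomal genes had other medians. The ribosomal proteins, with a median of -0.15 in control medium, had a median of 0.19 in LiCl, and the ribosome biogenesis genes had one of 0.0002. The difference of these lists between the media was not tested. By the test of the difference between the media, 12 genes (0.192%) were called with the block, 2 with a higher value in LiCl (0.0321%) and 10 with a lower one (0.16%), and 0 without it (561 at an unadjusted p under 0.05), and of the genes named here these were *GSC2* and *FRE2*.

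**Figure D5:**
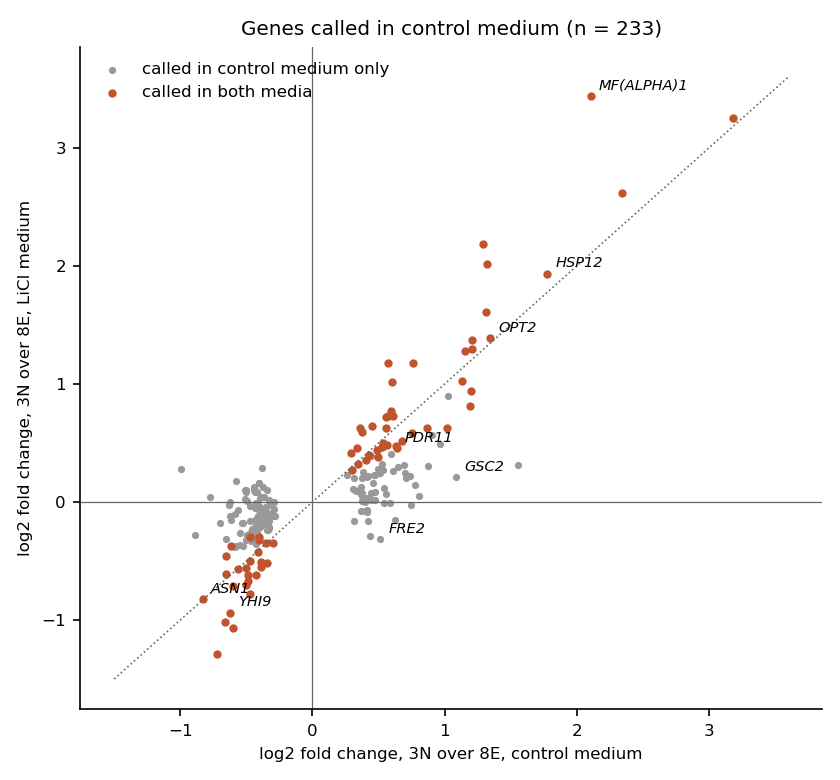
Log2 fold change of *hcm1-3N* over *hcm1-8E* in control medium (horizontal axis) and in LiCl medium (vertical axis) for the 233 genes called in control medium, with the 68 genes called in both media in orange and a dotted line of equal values. *GSC2* lay at 1.08 and 0.21, and *MF(ALPHA)1* at 2.1 and 3.44.

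Called genes differed in abundance between the directions. The median level of the genes higher in *hcm1-3N* was 16.6 TPM, counts scaled by gene length and to 1000000 per library, and 39.2% of them lay under 10 TPM. The genes lower in *hcm1-3N* had a median of 38.1 TPM with 7.63% under 10 TPM, and all genes tested a median of 25.1 TPM with 25.5% under 10 TPM. Pair 1 showed the smallest difference of the 3 pairs in 60.8% of the higher and 74.8% of the lower genes, against 46.6% of all genes. Whether the state of the replicate 1 cultures had a part in this was not tested.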

How the data were processed

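Polyadenylated RNA was sequenced from 18 yeast cultures. Paired-end reads were aligned by the authors to R64, and fragments on exons above a mapping quality limit were counted per gene with featureCounts. Deposited counts were raw whole numbers. The authors also deposited TPM for 6754 genes, that is, length-corrected counts that sum to 1000000 in a library. Use of strand in the counting is not given in the sources used here.

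Counts of all 18 libraries were fitted in edgeR 4.0.16 (R 4.3.3) with the 6 groups and the replicate number as a block, TMM normalization, the filterByExpr filter and robust quasi-likelihood tests. Genes with a Benjamini-Hochberg adjusted p under 0.05, over 6239 genes, were called, with no minimum fold. The test of the difference between the media was an interaction contrast of the same fit. CPM of single libraries carry no prior count, and pair differences used a prior count of 2. The block rests on the replicate numbers of the titles: deviations from group means of same-numbered *hcm1-3N* and *hcm1-8E* libraries correlated at 0.625, 0.451 and 0.382 across genes (mean over all groups 0.523, against -0.22 for different numbers). Whether cultures with one number were grown together is not given in the sources used here. Libraries were 18816441 counts or deeper, and 3 counts in these 6 libraries are 0.138 to 0.159 CPM. The chi-square per gene between replicates was 10.3 to 91.5, above counting noise.

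The comparison and its 57 gene lists were chosen with earlier results of these data known, so no list is independent support. The list of Hcm1 targets is that of the study. Named genes were *HCM1*, *URA3*, *HIS3* and *GAL1*, the 12 largest called changes in each direction among genes with a symbol, up to 3 called genes with the smallest p per list, all called targets and all genes called without the block. *GAL1* had a log2 fold change of 0.15 (adjusted p = 0.588). Other genes named were chosen after their values were seen. Positions, upstream bases and near-identical copies (95% identity over at least 100 bases, blastn 2.17.0) came from RefSeq R64, which placed 5741 of the tested genes. Alternatives were limma 3.58.1, DESeq2 1.42.0, other normalizations, filters and libraries. The scripts were tested on simulated data.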

Additional observations from a re-analysis of the deposited data

Results flagged for a closer look

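The difference between *hcm1-3N* and *hcm1-8E* depended on the medium for 2 of the genes named above, by the interaction term of the edgeR fit with the replicate block. *GSC2* was higher in *hcm1-3N* by 1.08 on the log2 scale in control medium and by 0.21 in LiCl, and the LiCl value minus the control value was -0.87 (SE 0.17, adjusted p = 0.0445). *FRE2*, a ferric reductase, was higher by 0.51 in control medium (13.5, 14.0 and 13.6 CPM against 10.2, 9.25 and 9.42 CPM) and had a log2 fold change of -0.32 in LiCl, a difference of -0.83 (SE 0.15, adjusted p = 0.0421). Without the block neither passed the test (adjusted p = 0.237 and 0.144).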

How the results depend on the processing

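The 233 calls between *hcm1-3N* and *hcm1-8E* (102 higher, 131 lower, with 4 Hcm1 targets) became 4 (4 and 0, no targets) with no replicate block, 1405 (654 and 751, 20 targets) with only the 6 libraries, 1377 (625 and 752, 23 targets) with only the 9 control libraries, 431 (181 and 250, 7 targets) with DESeq2 and the block, 119 (56 and 63, 2 targets) with DESeq2 and no replicate block, and 140 (56 and 84) with limma on log2(TPM + 1). Leaving out 1 library or 1 pair gave 1 to 705 calls, of which 1 to 268 were higher and 0 to 437 lower, with 0 to 7 targets. Leaving replicate 1 out of all 6 groups, an alternative chosen after seeing the data, gave 688 (311 and 377, 7 targets), 209 of them among the 233. Fewer libraries change the estimate of the spread, and the cause beyond this was not tested. DESeq2 size factors, upper quartile normalization, no filter on low counts, a filter at 10 CPM and limma voom gave 192 to 226 calls. *HCM1* was not called in any of the 21 alternatives. With no replicate block, calls fell from 530 to 191 in LiCl, from 12 to 0 for the difference between media, from 1403 to 479 for *hcm1-3N* against WT and from 99 to 4 for *hcm1-8E* against WT. No named gene changed direction with a call under any alternative, but the alternatives share libraries with the main fit. Of the other values of named genes, 1137 stayed on their side of the threshold and 887 fell below it in the same direction. At these depths, genes under 1 CPM rest on few counts.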

Other observations

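The lists of iron, copper and zinc, phosphate and vitamin genes held 1 to 3 called genes each (8.82%, 5.26%, 7.14% and 9.68% of their members, against 3.73% of all genes). Of 34 genes of the iron regulon, *FRE2* was higher and *AFT1*, the iron-sensing transcription factor, and *ISU2*, a scaffold for iron-sulfur clusters, were lower in *hcm1-3N*, and 18 of the 34 were positive. *AFT1* had 48.5, 33.9 and 35.6 CPM in *hcm1-3N* and 61.0, 50.9 and 56.8 CPM in *hcm1-8E* (log2 fold change -0.53, SE 0.09, edgeR adjusted p = 0.0174). *PHO5*, the secreted acid phosphatase, had 26.9, 24.3 and 25.5 CPM against 18.3, 16.6 and 17.1 CPM (log2 fold change 0.56, adjusted p = 0.0257), while the phosphate transporter gene *PHO87* was lower (-0.31, adjusted p = 0.0293). *ZRG17*, a zinc transporter of the secretory pathway, was lower (-0.47, adjusted p = 0.0174). *THI12*, of thiamine synthesis, was higher (0.61, adjusted p = 0.0218) but shares near-identical sequence with 3 other genes. *BNA5*, of NAD synthesis from tryptophan, was higher (0.45, adjusted p = 0.0259). The flocculation genes *FLO11* and *FLO9* were higher by 0.56 and 0.54, and *FLO9* has a near-identical copy. *STE6*, the exporter of a-factor, and *STE7*, a kinase of the pheromone response, were lower by log2 fold changes of -0.36 and -0.34, and *FIG2*, a mating adhesin, was higher (0.45). None of 42 proteasome genes, 30 purine and one-carbon genes, 17 pyrimidine genes or 72 small nucleolar RNA genes was called by edgeR. At an unadjusted p under 0.05, these lists held 2 higher and 7 lower, 1 and 3, 2 and 5, and 9 and 1 genes. Over all 6239 genes these counts were 667 and 823.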
